A study of Mus musculus with 12 samples.

Results

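The ribosomal RNA-like locus on mouse chromosome 17 was examined in nucleosome calls from male germ cells. Its members were all calls whose midpoint (start plus 70 bp) lay in chr17:39840001-39850000 on GRCm38/mm10, a window of 10000 bp. They numbered 947 of the 415758 calls in the 6 lists of the series. The window was chosen by its number of calls in these same lists, so that number is a description of the choice and was not tested.

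The cells came from adult male SV129 mice, 8 to 12 weeks old, with testes of 11 animals pooled per STAPUT sedimentation and fractions of at least 85% purity kept. Round spermatids, called RS, are the haploid cells whose histones are later exchanged for protamines. The other fraction, called M, is titled meiotic spermatid in the labels but meiotic in the protocol, so whether it held meiotic cells or spermatids is not settled by them. Each fraction was digested with 0.5, 1 or 2 U of micrococcal nuclease (MNase) for 7.5 min at 37 °C, with 2 samples for each of the 6 groups and 2 times as many RS cells as M cells at each amount. The authors made 1 list of calls from both samples of a group, so no difference below could be tested against the spread between replicates. The 95% intervals cover counting error only, and they are too narrow because the calls overlap.

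Ribosomal RNA genes lie in long tandem arrays in the mouse genome, and RNA polymerase I transcribes each copy into a precursor from which the large and small ribosomal RNAs are cut. Only some of the copies are transcribed, and these are known for holding few nucleosomes and much of the factor UBF. MNase cuts linker DNA between nucleosomes first, and with more enzyme it also trims the DNA on them.

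The RefSeq table of GRCm38.p6 places 2 genes in the window. Rn18s-rs5, a pseudogene related to the RNA of the small ribosomal subunit, spans chr17:39846354-39848202, which is 1849 bp. AY036118, annotated as a long non-coding RNA, spans chr17:39848112-39898385 on the minus strand, so only its last part lies in the window, and its last 91 bp overlap Rn18s-rs5. The nearest genes on either side are Esp15, ending at position 39645667, and Esp38, starting at position 39950520, which both encode exocrine gland-secreted peptides. The table gives neither exons nor the strand of Rn18s-rs5, so left and right below follow the chromosome. No sequence of the called stretch was used here, and how far it matches a ribosomal RNA gene was therefore not tested.

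The sequence around the start of AY036118 is shown because it is the stretch with known letters at an end of a gene of the locus, and because it contrasts with the crowded stretch at Rn18s-rs5. It comes from RefSeq on GRCm38.p6, at chr17:39898336-39898635, read 5′ to 3′ on the minus strand, with the bases under a nucleosome call in capitals.
AY036118 start: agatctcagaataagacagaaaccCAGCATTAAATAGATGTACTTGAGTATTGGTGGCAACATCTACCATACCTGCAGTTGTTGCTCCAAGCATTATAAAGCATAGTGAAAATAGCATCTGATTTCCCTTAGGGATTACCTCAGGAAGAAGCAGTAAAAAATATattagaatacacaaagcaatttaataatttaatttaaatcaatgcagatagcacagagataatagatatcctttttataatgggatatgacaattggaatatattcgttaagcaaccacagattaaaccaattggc
This window of 300 bp is 32.7% G or C and met 1 call in the 6 lists together, from M at 0.5 U at chr17:39898472-39898611. That call had the authors' p-value 6.37e-06, the largest in its list, which 65.4% of the calls of that list shared. It lies outside the window of the locus.

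RS had 163, 160 and 163 calls from 0.5 to 2 U. M had 134, 159 and 168 calls. Thus 5 of the 6 lists lay between 159 and 168 calls, and M at 0.5 U stood below them. Calls cannot lie closer than 20 bp, and 54.9% to 61.1% of neighbours here lay at that limit. Its part in the likeness of these numbers was not tested. The median implied reads described below ran from 16 to 35. The whole lists differed far more in size, with 179133, 41655 and 27101 calls in RS and 42178, 60077 and 65614 in M, a span of 6.61-fold against 1.25-fold in the locus.

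As a share of the list, the locus therefore ran against the size of the list. It made up 0.0910% of the RS list at 0.5 U (exact binomial 95% interval 0.0776 to 0.106), 0.384% at 1 U (0.327 to 0.448) and 0.601% at 2 U (0.513 to 0.701). In M the shares were 0.318% (0.266 to 0.376), 0.265% (0.225 to 0.309) and 0.256% (0.219 to 0.298). The RS share was below that of M at 0.5 U and above it at 1 U and 2 U. On the log2 scale the share in RS over that in M came to -1.80 (-2.13 to -1.47), 0.54 (0.22 to 0.85) and 1.23 (0.92 to 1.54) from 0.5 to 2 U. With the plain numbers of calls these ratios were 0.28 (-0.05 to 0.61), 0.01 (-0.31 to 0.33) and -0.04 (-0.35 to 0.27), and each of these intervals includes 0. At equal MNase per cell the log2 ratio of shares was 0.27 (-0.06 to 0.60) when RS with 1 U was set over M with 0.5 U. It was 1.18 (0.87 to 1.5) when RS with 2 U was set over M with 1 U. List size moves with these shares, and its part in them was not tested beyond the plain numbers.

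**Figure D1:**
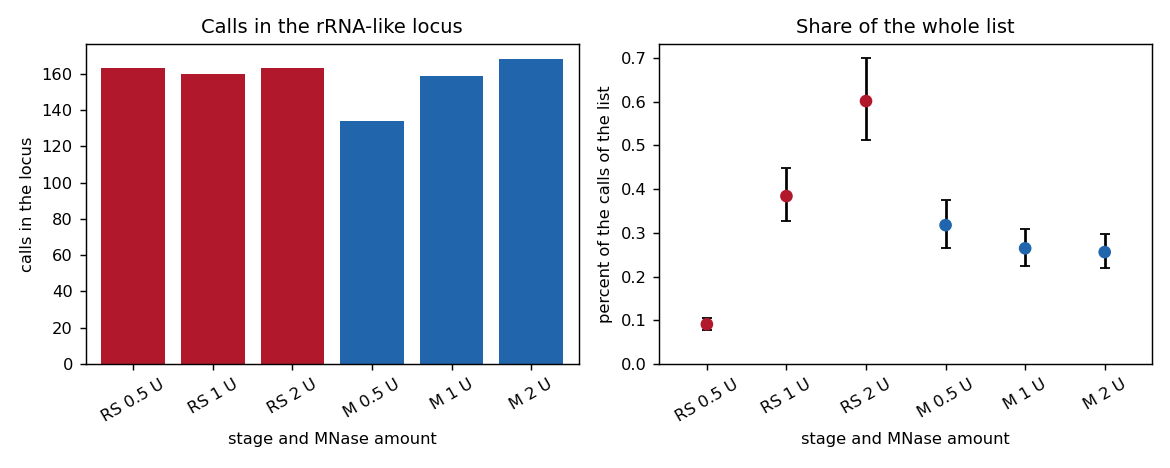
Left, calls in the locus (bars, number of calls) for RS in red and M in blue at 0.5, 1 and 2 U; right, the same calls as a percent of their list (points), with exact binomial 95% intervals as error bars. The counts lie between 134 and 168 while the shares run over a range of 0.0910% to 0.601%.

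Other crowded places shifted in the same direction at the median, though less than the locus. Windows of 10000 bp were called dense when any list had over 20 calls there, and 249 of the 260 such bins were occupied in all 6 lists. A bin could thus enter through a single high list, which shapes its ratio of RS to M. The counts below were not repeated over bins with over 20 calls in all 6 lists. Of the 248 other than the locus, the share of the list was lower in RS by more than 2-fold in 40.3% at 0.5 U and higher by more than 2-fold in 6.45%. At 1 U the numbers were 7.66% lower and 11.3% higher, and the locus was within 2-fold. At 2 U they were 4.44% lower and 22.2% higher. From the 5th to the 95th percentile, the log2 ratios of these bins lay between -1.90 and 1.25 at 0.5 U and between -0.98 and 1.56 at 2 U. The locus was inside both ranges. Their quartiles were -1.29 and -0.16 at 0.5 U, with a median of -0.81, and -0.14 and 0.94 at 2 U, with a median of 0.43. The locus, at -1.80 and 1.23, lay outside the quartiles at both amounts. At 1 U it was 0.54, inside the quartiles of -0.21 and 0.61.

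The highest number of calls over the lowest was 1.25 in the locus, with a median of 4.20 over the other 248 bins, and 13 of the 248 had a ratio at or below that of the locus. Bins that entered through a single high list have a large ratio by construction, so the count was repeated over the 65 other bins with over 20 calls in all 6 lists. Their median was 2.18, and 12 of the 65 were at or below the locus. Since the locus was chosen by its number of calls, these values are a description. For comparison, the 16 bins around the prolactin family gene Prl2c3 on chromosome 13 held 1586, 681 and 409 calls in RS and 775, 906 and 892 in M, from 0.5 to 2 U. The 8 bins around Sfi1, a gene of a centrosome protein, on chromosome 11 held 847, 730 and 682 calls in RS and 548, 714 and 784 in M. The ratio of the highest to the lowest list was 3.88 on chromosome 13 and 1.55 on chromosome 11. By number of calls, the locus ranked 11th, 10th and 9th among all bins of the RS lists and 10th in each M list.

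The calls formed 1 stretch with sharp ends. Outermost calls over all lists ran from 39843062 to 39848841, which is 5780 bp. It reached 3292 bp to the left of Rn18s-rs5 and 639 bp to the right of it. The first called base was 39843072, 39843072 and 39843062 in RS and 39843072, 39843062 and 39843062 in M. The last was 39848831, 39848831 and 39848841 in RS and 39848783, 39848831 and 39848811 in M. The left end thus differed by 10 bp at most between lists, the right end lay farthest in for M at 0.5 U, and the rest of the window was free of calls. The surroundings were sparse too: the 100000 bp to the left of the window held 15, 4 and 0 calls in RS and 3, 0 and 1 in M, and those to the right 7, 0 and 0 in RS and 1, 0 and 1 in M. The part of AY036118 to the right of the window, most of that gene, held 5 calls in RS at 0.5 U and 0 in each other list.

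Within the stretch, hardly a base was without a call. RS calls covered 5750, 5760 and 5780 bp from 0.5 to 2 U. M calls covered 5372, 5770 and 5750 bp. Joined over the 6 lists, the overlapping calls made 1 merged region, found in all 6 lists, as 0.235% of the merged regions of 21 chromosomes were, and the third longest of 238979. Of its 5780 bp, 5362 bp (92.8%) lay under a call in every list. No base lay under a call in all 3 RS lists and in no M list, or in all 3 M lists and in no RS list.

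The few gaps belonged to the 0.5 U lists. RS at 0.5 U lacked 10 bp, at chr17:39843652-39843661. M at 0.5 U lacked 135 bp at chr17:39844397-39844531 and 55 bp at chr17:39845667-39845721, both to the left of Rn18s-rs5, and 150 bp at chr17:39848382-39848531, to the right of it. The lists at 1 U and 2 U had no gap between their outermost calls.

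Each call spanned 140 bp, and calls were never closer than 20 bp to each other anywhere in the genome, which sets a limit on their number. Neighbouring calls in the locus lay 20 bp apart at the median in all 6 lists, with quartiles of 20 and 40 bp. Exactly 20 bp separated 59.9%, 56.6% and 54.9% of neighbours in RS and 56.4%, 55.1% and 61.1% in M. Most neighbouring calls were therefore packed as closely as the lists allow, in each list. The longest distance between neighbours was 150, 120 and 120 bp in RS and 290, 130 and 120 bp in M.

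The positions were then described by annotated segments. To the left of Rn18s-rs5, RS had 92, 92 and 96 calls from 0.5 to 2 U. M had 72, 92 and 94 calls there. M at 0.5 U was again the list with fewer. In Rn18s-rs5 itself RS had 55, 51 and 53 calls, and M had 52, 50 and 55, so that here M at 0.5 U did not stand apart. To the right of Rn18s-rs5, in the end of AY036118, RS had 16, 17 and 14 calls and M 10, 17 and 19. In the 91 bp shared by both genes there were 5, 3 and 3 midpoints in RS and 4, 2 and 2 in M.

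Per length, M at 0.5 U was lower than the other lists in the middle of the stretch and to the right of Rn18s-rs5. The middle is the 2292 bp between the left 1000 bp of the stretch and Rn18s-rs5, a division chosen after the profile was seen. It held 28.8, 28.4 and 29.2 calls per kb in RS and 19.2, 27.5 and 27.9 in M, from 0.5 to 2 U. In the left 1000 bp the density was 26, 27 and 29 calls per kb in RS and 28, 29 and 30 in M. Rn18s-rs5 held 29.7, 27.6 and 28.7 calls per kb in RS and 28.1, 27.0 and 29.7 in M. The 639 bp to the right of it held 25, 26.6 and 21.9 calls per kb in RS and 15.6, 26.6 and 29.7 in M.

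**Figure D2:**
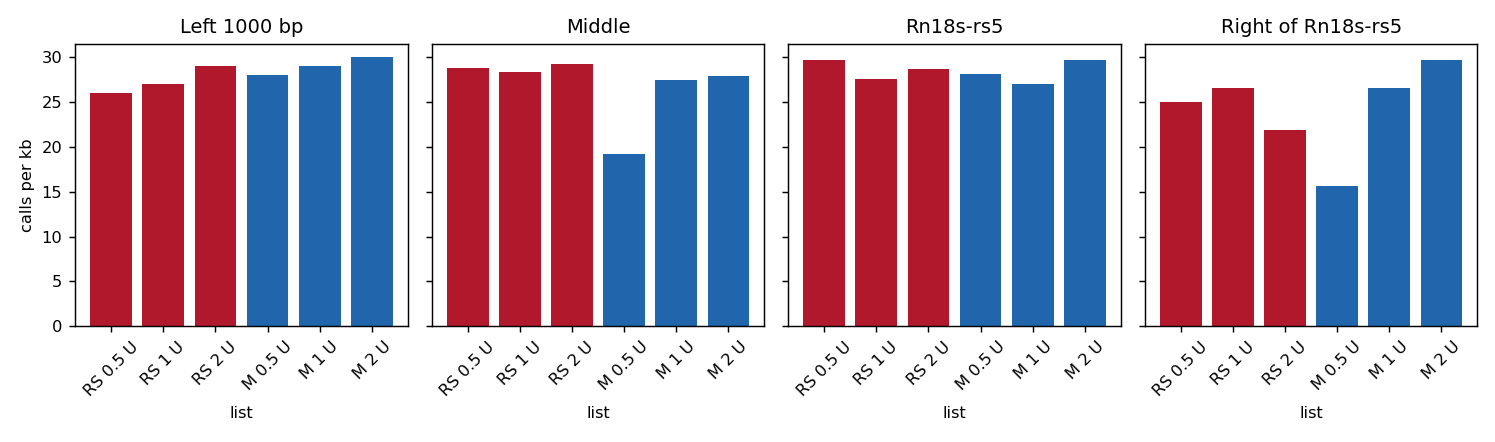
Calls per kb (bars) in the left 1000 bp of the stretch, in the middle, in Rn18s-rs5 and to the right of it, for RS in red and M in blue at 0.5, 1 and 2 U. M at 0.5 U has 19.2 calls per kb in the middle and 15.6 to the right of Rn18s-rs5, while the other bars lie between 21.9 and 30.

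Over bins of 500 bp the lists differed little in where their calls lay. Between RS and M, the part of calls that lay in different bins (the summed difference of bin shares, divided by 2) was 11.2%, 4.05% and 4.74% from 0.5 to 2 U. At 0.5 U the bins that differed most were chr17:39845501-39846000, with 15 calls in RS and 7 in M, and chr17:39846001-39846500, also with 15 and 7. These bins lie just left of, and across, the left end of Rn18s-rs5.

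Calls in the locus were stronger than those of the list at large. The authors' p-value of each call matched the tail of a Poisson distribution, which gives the number of reads that it implies, with a minimum of 6 in every list. The median implied reads in the locus were 30, 29 and 31 in RS and 16, 26 and 35 in M, from 0.5 to 2 U, whereas the median of every whole list was 6. Calls of 10 or more implied reads were 96.9%, 98.8% and 98.2% of the locus calls in RS and 81.3%, 98.1% and 98.2% in M. Over the whole lists the shares were 3.35%, 8.33% and 11.3% in RS and 7.36%, 6.48% and 6.48% in M. The locus held 2.63%, 4.55% and 5.23% of all such calls in RS and 3.51%, 4.01% and 3.88% in M. Only 1, 0 and 1 locus calls in RS and 6, 1 and 1 in M stood at the minimum of 6. The very strongest calls mostly lay elsewhere. A p-value of 0 was given to 194, 174 and 162 calls of the RS lists and 156, 165 and 183 of the M lists. In the locus these were 1, 0 and 0 in RS and 0, 0 and 1 in M. Strength was not compared with that of the other dense bins, so it is not shown to be particular to the locus.

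Relative to the mean reads per window that the p-values of a list imply, the median locus call was 43.1, 61.4 and 75.7 times the mean in RS and 36.9, 53.7 and 69.0 times in M. These ratios describe calls that passed the minimum and are not a coverage of the locus. Whether reads from other ribosomal RNA gene copies were placed here by the alignment was not tested, since the lists hold neither reads nor their number of matches.

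By broad segment, the implied reads were high and low in the same parts of the copy in all lists. They were summarised as the highest implied reads of the calls over each base, divided by the mean of that value over the stretch of the same list. In the left 1000 bp this relative level was 1.46, 1.58 and 1.72 in RS and 1.29, 1.43 and 1.61 in M, from 0.5 to 2 U. In the middle it was 0.53, 0.59 and 0.59 in RS and 0.40, 0.51 and 0.58 in M. In Rn18s-rs5 it was 1.48, 1.37 and 1.3 in RS and 1.81, 1.53 and 1.39 in M. To the right of Rn18s-rs5 it was 0.57, 0.48 and 0.46 in RS and 0.36, 0.52 and 0.43 in M. The left end and Rn18s-rs5 thus stood above the mean of the stretch in every list, and the middle and the right end below it. Single bins of 50 bp could differ between lists. At -2728.5 bp, left of Rn18s-rs5, the level was 0.76 in RS at 0.5 U and 2.32 in RS at 2 U.

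**Figure D3:**
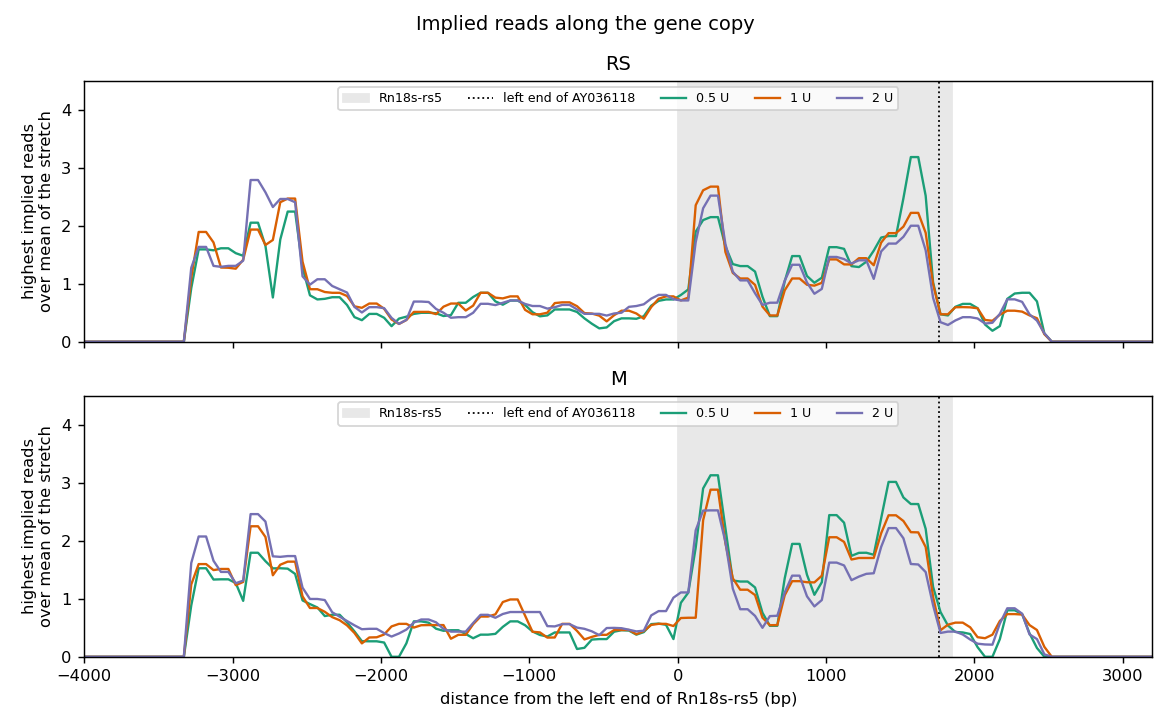
Highest implied reads over each base, averaged in bins of 50 bp and divided by the mean of the stretch (vertical axis, no unit), against the distance from the left end of Rn18s-rs5 in bp, for RS (top) and M (bottom) at 0.5, 1 and 2 U (lines). Both stages show high levels in the left 1000 bp and within Rn18s-rs5 (grey). Averaged over the whole middle, the lists have 0.40 to 0.59 of the mean, while single bins there range more widely.

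Within Rn18s-rs5 the level was uneven. The bin at chr17:39847501-39848000, near its right end, had 1.98, 1.74 and 1.60 times the mean in RS and 2.35, 2.05 and 1.72 times in M. The next bin to the right, chr17:39848001-39848500, which takes in the right end of Rn18s-rs5, had 0.74, 0.69 and 0.52 times in RS and 0.61, 0.67 and 0.50 times in M. The level thus dropped by more than 2-fold between these neighbouring bins in each list, although the number of calls was not lower, with 11, 12 and 12 calls in the left bin and 19, 15 and 14 in the right bin in RS.

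The profiles of different lists resembled each other whatever the stage. Over 57 bins of 100 bp, Spearman's rho between 2 lists was 0.89 to 0.93 within RS and 0.89 to 0.92 within M. Between RS and M at the same MNase amount it was 0.87 to 0.96, and at different amounts 0.87 to 0.92. These correlations are across positions of 1 locus, which share their sequence, their mappability and, for neighbouring bins, overlapping calls, so they carry no test.

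The balance between the left end and Rn18s-rs5 moved with the amount of MNase. The mean level of the left 1000 bp was 0.984, 1.15 and 1.32 times that of Rn18s-rs5 in RS at 0.5, 1 and 2 U, and 0.714, 0.935 and 1.16 times in M. In both stages the ratio was higher at each larger amount, and RS was above M at each amount. This comparison was chosen after the profile was seen. The implied mean of the list fell with MNase in RS (0.696, 0.472 and 0.409 reads per window) and rose in M (0.434, 0.484 and 0.507), and its part in the ratio was not tested. In RS at 0.5 U and M at 2 U, 1 call in Rn18s-rs5 had a p-value of 0 and its reads, 166 and 157, are minimum values, so the ratios of these lists are upper limits. Without the strongest locus call of each list the log2 ratios were 0.03, 0.24 and 0.31 in RS and -0.45, -0.03 and 0.22 in M.

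**Figure D4:**
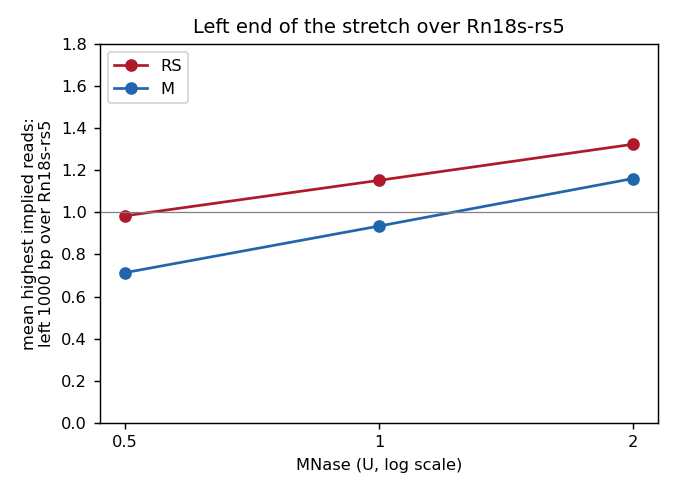
Mean of the highest implied reads over the left 1000 bp divided by that over Rn18s-rs5 (vertical axis, no unit) against MNase in U on a log axis, for RS in red and M in blue, with 1 list per point and no error bars because the lists have no replicates. The points run from 0.984 to 1.32 in RS and from 0.714 to 1.16 in M.

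Single positions were compared through the call with the smallest p-value among the locus calls of each list. Ranks are within the locus unless whole lists are named. The call at chr17:39846512-39846651, whose midpoint lies 227 bp inside Rn18s-rs5 from its left end, ranked first in RS at 1 U and in M at 0.5, 1 and 2 U. Its implied reads were 112 and 130 in RS at 0.5 and 1 U and 82, 137 and at least 157 in M from 0.5 to 2 U, and RS at 2 U had a call 10 bp to the right of it with 131. In RS at 0.5 U the first call was chr17:39847872-39848011, 1587 bp inside Rn18s-rs5, with at least 166 implied reads. In RS at 2 U it was chr17:39843442-39843581, with its midpoint at -2843 bp, where the minus means left of Rn18s-rs5, and 145 implied reads. The place at 1587 bp ranked 18th in M at 2 U, and the one at -2843 bp, counting calls up to 10 bp away, ranked 15th in M at 0.5 U, while each ranked 7th or better in the other lists. Over the whole lists, the first locus calls ranked 195th in RS at 1 U, 166th in RS at 2 U, 241st in M at 0.5 U and 176th in M at 1 U. In RS at 0.5 U and M at 2 U the first locus call had a p-value of 0, as 194 and 183 calls of the whole lists did.

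Because neighbouring calls overlap, a set of non-overlapping leading calls was taken from each list, with the smallest p-value first and midpoints at least 140 bp apart. The locus gave 31, 31 and 30 leading calls in RS and 28, 30 and 30 in M. Their neighbours lay 165, 170 and 170 bp apart at the median in RS and 205, 180 and 200 bp in M. The quartiles overlapped widely, with 150 to 219, 152.5 to 217.5 and 160 to 210 bp in RS and 157.5 to 226, 150 to 220 and 150 to 230 bp in M. The minimum of 140 bp was imposed, so these distances are not nucleosome repeat lengths.

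Of the leading calls of RS at 0.5 U, 17 of 31 (54.8%, 36.0 to 72.7) had a leading call of M at 0.5 U within 20 bp, against 1.15% over 21 chromosomes and 20% in the other dense bins. At 1 U it was 24 of 31 (77.4%, 58.9 to 90.4), against 3.91% and 28.4%. At 2 U it was 17 of 30 (56.7%, 37.4 to 74.5), against 5.85% and 35.9%. The shares in the locus were above those of the other dense bins at each amount. Some of those bins could enter through a single high list and hold few calls to match in the other. The comparison was not repeated over bins with over 20 calls in all 6 lists, so no excess is read from it. Starts of 86.3% to 87.2% of the calls of a list sit on a grid of 5 bp, which favours near matches everywhere, and the locus has calls along its whole length, whereas calls of other bins can lie far from any call of the other list.

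Lists of the same stage were compared in the same way, with the same limit on the values of the other dense bins. In RS, 21 of 31 leading calls at 1 U (67.7%) matched those at 0.5 U, against 5.5% over 21 chromosomes and 38.5% in the other dense bins. For RS at 2 U, 16 of 30 (53.3%) matched 0.5 U, against 6.98% and 39.1%, and 20 of 30 (66.7%) matched 1 U, against 5.28% and 33%. In M, 20 of 30 leading calls at 1 U (66.7%) matched 0.5 U, against 2.62% and 25%. For M at 2 U, 16 of 30 (53.3%) matched 0.5 U, against 2.44% and 23.5%, and 21 of 30 (70%) matched 1 U, against 3.27% and 28.7%. The matches within a stage thus ran from 53.3% to 70% and those between the stages from 54.8% to 77.4%, which overlap.

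At 11 places a leading call was found in all 6 lists, each within 20 bp of that of RS at 2 U, and their midpoints spread over at most 25 bp. They were 36.7% of the 30 leading calls of RS at 2 U. Counted from the other lists, there were 10 and 11 in RS at 0.5 and 1 U and 10, 11 and 10 in M. The like share over all leading calls or in the other dense bins was not counted, so no excess is read from it. Of the 11 places, 6 lay in Rn18s-rs5, where each list had 9 or 10 leading calls. Their midpoints were 227 to 237, 447 to 457, 782 to 787, 1057, 1427 to 1437 and 1587 bp from its left end. The other 5 lay to its left, 2 of them in the left 1000 bp and 3 in the middle. The end of AY036118 to the right of Rn18s-rs5 had none. At the place 1057 bp inside Rn18s-rs5 every list had the same call, with 85, 69 and 76 implied reads in RS and 64, 98 and 101 in M, and at 1587 bp likewise, with at least 166, then 108 and 104, in RS and 69, 102 and 99 in M. The place at -973 to -948 bp, the weakest in all lists except M at 2 U, had 22, 23 and 32 implied reads in RS and 8, 20 and 48 in M.

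**Figure D5:**
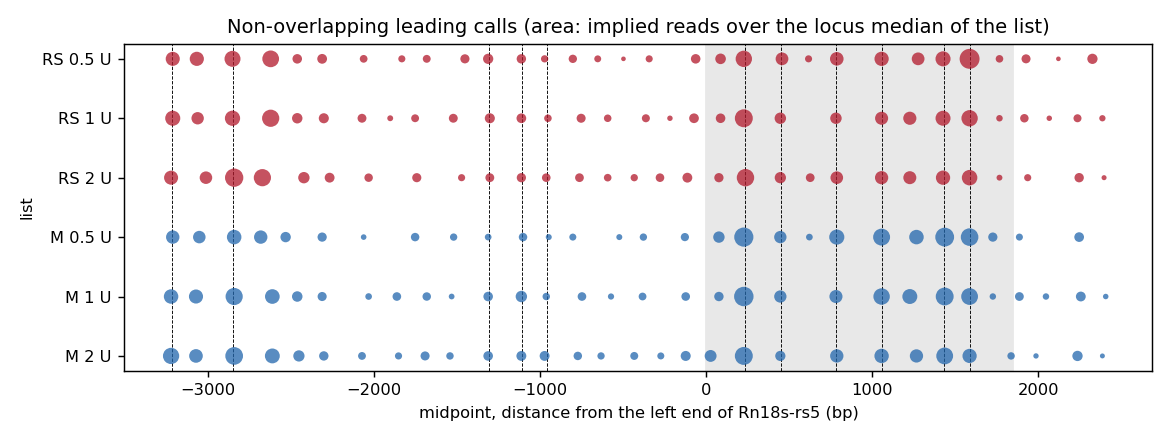
Midpoints of the leading calls (points) of each list by distance from the left end of Rn18s-rs5 in bp, RS in red above M in blue, with point area in proportion to the implied reads over the locus median of the list; grey marks Rn18s-rs5 and dashed lines the 11 places shared by all 6 lists. Of these places 6 lie in Rn18s-rs5 and 5 to its left.

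When all calls were compared instead, those of RS at 0.5 U had a call of M within 73 bp in 95.7% (91.4 to 98.3), against 4.49% over 21 chromosomes and 47.9% in the other dense bins. At 1 U it was 100% (97.7 to 100), against 13.5% and 65.9%, and at 2 U 100% (97.8 to 100), against 18.8% and 76%. With neighbours 20 bp apart at the median and calls over almost the whole stretch, such a match is given by the density that chose the locus. Nothing is read from it.

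Other genes of ribosomal RNA and of its transcription were looked up for comparison, counting midpoints in the gene and 1000 bp on each side. Of the 11 other genes with Rn symbols, which include small RNA genes such as Rn7sk, 1 had calls in RS and 0 in M, against 12% in RS and 7.76% in M of all genes up to the same length of 420 bp. That gene was Rn7sk, with 2 calls in RS at 0.5 U. Of 69 genes for the small 5S ribosomal RNA, annotated as n-R5s, 3 had calls in RS and 1 in M, against 9.53% in RS and 5.25% in M of all genes up to 121 bp. In all, 65 of the 69 had no call in any list, where 86.5% of the genes up to 121 bp had none. Many of the 69 lie side by side on chromosome 8 with overlapping margins, so they are not separate observations. For this reason, and with so few genes, nothing is read from these counts. Rn18s-rs5 with its margins had 102, 96 and 95 calls in RS and 79, 97 and 99 in M.

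The genes for RNA polymerase I and its partners were set beside all protein-coding genes, and no difference is read from so few genes. Of 30 genes with a position in the table (33 were sought), 17 had a call in RS, against 55% of all 21887 protein-coding genes. In M, 10 of the 30 had a call, against 40.6%. A call was found in no list for 8 of them, where 36.1% of the protein-coding genes had none. Their calls summed to 21, 4 and 2 in RS and 3, 9 and 6 in M, from 0.5 to 2 U. Ubtf, which encodes UBF, had 1 call, in RS at 2 U, and Rrn3, an initiation factor of the polymerase, had 1 call, in RS at 0.5 U. Smarca5 and Kdm2b, which encode a chromatin remodeller and a histone demethylase, had calls in 3 lists each, the most of this group, and Rn18s-rs5 alone among all these genes had calls in 4 or more.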

How the data were processed

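MNase-seq of 12 mouse samples in 6 groups of 2 was analysed. Per the submitters' processing notes, STAR 2.5.2a and GRCm38/mm10 were used. How reads with several matches were treated, and by what caller and threshold nucleosomes were called, is not given in the sources used here. The authors, per the series' design text, made each list from both replicates, so replicates could not be compared. Each list holds 140 bp calls with a p-value deposited by the authors, and no counts; the sequenced depth is unknown.

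Members and lists were chosen with earlier results of these data known. Implied reads are the Poisson tail counts that match each p-value (minimum of 6 in every list); p-values of 0 were given the smallest count whose tail underflows. Named genes were those overlapping the window, the nearest on each side, and rRNA or polymerase I genes with calls in at least 4 lists; Rn7sk, Ubtf, Rrn3, Smarca5 and Kdm2b were named after their values were seen. Leading calls, the left end, and the comparisons of dense bins by highest over lowest count and with all genes, were added after the data were seen. Intervals are exact binomial (Clopper-Pearson) or, for log2 ratios, normal from the counts. The steps were tested on simulated lists. Python 3.11.15, numpy 2.4.6, pandas 2.3.3, scipy 1.17.1 and matplotlib 3.10.9 were used.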

Additional observations from a re-analysis of the deposited data

Results flagged for a closer look

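The share of the list in the locus moved in opposite ways with MNase in the stages. From 0.5 U to 2 U the log2 ratio was 2.72 in RS (2.41 to 3.04) and -0.31 in M (-0.64 to 0.02), and each step of the amount was upward in RS and downward in M. The difference between the stages was not tested, as each group has 1 list, and the interval of M includes 0. The direction of that difference was not particular to the locus, since the log2 ratio of RS to M shares also rose with MNase in the other crowded places named above. From 0.5 to 2 U it was -1.46, 0.56 and 1.07 in the Sfi1 bins and -1.05, 0.12 and 0.15 in the Prl2c3 bins. Without scaling by list size the ratios were 0.00 in RS, with 163 calls at both amounts, and 0.33 in M. The rise of the RS share was thus 6.61-fold, the same as the fold between the RS list sizes at 0.5 and 2 U. In M the number of calls rose from 134 to 168 while the share fell, as the list grew more. Why the sizes of the lists differ was not tested.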

How the results depend on the processing

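No paired analysis was possible because each group has 1 list made from both replicates, and for the same reason no replicate could be left out. Of the values under other settings, 80 stayed within the counting interval of the reported value (counts and left-end ratios: within 1.5 times, and ratios with their sign), 39 moved and 3 reversed; where not evident from the setting, the cause was not tested. Counting midpoints within Rn18s-rs5 gave 55, 51 and 53 calls in RS and 52, 50 and 55 in M, and merging overlapping calls gave 3, 1 and 1 in RS and 6, 1 and 1 in M. Without scaling by list size, the log2 ratio of RS to M was 0.28, 0.0090 and -0.044 from 0.5 to 2 U, reversed at 0.5 U and 2 U, and 2 U over 0.5 U was 0 in RS, where the scaled rise was gone, and 0.33 in M. The mean of the scaled ratio of RS to M over 3 amounts, -0.01, became 0.88 without 0.5 U, -0.29 without 1 U, -0.63 without 2 U and 0.73 at equal MNase per cell. The central 40 bp of the calls covered 4355, 4385 and 4502 bp in RS and 3685, 4420 and 4525 bp in M. Matches of all calls between the stages within 20 bp were 81.0%, 95% and 94.5% in RS and 94.8%, 93.1% and 94.6% in M, and within 140 bp 100% of RS at 0.5 U. At 1 U the calls in different bins were 9.15% with bins of 250 bp and 9.02% when weighted by implied reads. The order of the left end over Rn18s-rs5, rising with MNase and higher in RS, held in 5 of 5 settings, the reported one included. The smallest difference was 0.01 at 2 U (log2, RS minus M). All these settings use the calls from which the comparison was chosen, so they are no independent check. The side of 0 on which that log2 ratio lay did change: RS at 0.5 U was 0.15 with a left end of 500 bp and 0.035 without the strongest locus call, M at 1 U was 0.11 with 500 bp, and with 1500 bp RS at 1 U was -0.14 and M at 2 U -0.17. The median of the highest over the lowest count was 2.18 in bins above 20 calls in all 6 lists.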
